A study of Mus musculus with 8 samples.

Results

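Cells of the frontal isocortex that were sorted for a Drd1a-tdTomato reporter were compared between mice with and without Foxp2 in the Emx1-Cre lineage, across gene families and pathways. The comparison was made of 4 of the 8 libraries in the study, those of the tdTomato sort, with 11494 cells and 17836 genes. The control mice carried the Drd1a-tdTomato transgene and Foxp2 flox/flox alleles with no Cre. The conditional knockout (cKO) mice carried Drd1a-tdTomato, Emx1-Cre and Foxp2 flox/flox. All groups thus shared the reporter and the floxed alleles, were littermates on a C57BL/6J background and were taken at postnatal day 7. There were 2 libraries in each group. Control 1 and cKO 1 made up batch 1, and control 2 and cKO 2 made up batch 2. Only cKO 2 was male, so within batch 2 a difference between the groups cannot be told apart from one between the sexes. Live tdTomato-positive cells were isolated by fluorescence-activated sorting after pronase digestion, and libraries were made with the 10x Genomics Chromium 3' chemistry, which counts the 3' ends of transcripts. The labels do not say whether a library came from 1 animal or from a pool, so every p-value measures the spread between these libraries, which may be technical.

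Foxp2 is a forkhead transcription factor that acts largely as a repressor, and in the cortex it is best known from layer 6 corticothalamic neurons. In this Emx1-Cre line Cre is inserted at Emx1 and acts in progenitors of the dorsal telencephalon, which give rise to the excitatory neurons of the cortex and to much of its glia. Cortical interneurons, which release GABA, are born in the ganglionic eminences of the ventral telencephalon, outside that lineage for the most part. The Drd1a-tdTomato reporter is a bacterial artificial chromosome that carries the control regions of the dopamine D1 receptor gene. The sort selects cells by that transgene.

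The libraries held between 2395 and 3206 cells and between 27323298 and 36379194 counts, with medians of 7198 to 12815 counts per cell. Of the cell barcodes, 97 occurred in more than 1 library, on 200 cells. Counts of exactly 2 were 1.69 and 0.723 times as frequent as counts of 1 in control 1 and 2, against 1.54 and 0.307 times in cKO 1 and 2, so the values did not behave as plain numbers of molecules and counting intervals were not used. Clusters were named anew from marker genes, and 6 classes of cells could be compared across all 4 libraries. Excitatory neuron-like cells were 12.9% and 24.3% of the cells of control 1 and 2 and 7.36% and 6.04% of those of cKO 1 and 2. The share of this named class was lower in both cKO libraries than in both controls. Unnamed clusters held 30.2% and 31.1% of control cells against 39.5% and 49.7% of cKO cells, a share that was higher in both cKO libraries. Among them, cluster 1, led by Gng13, had 205 and 56 control cells against 321 and 473 cKO cells. Cluster 3, led by Abca1 and Gja1, had 41 and 229 against 147 and 526, and cluster 8, led by Pdgfra, 21 and 165 against 63 and 218. Some unnamed clusters were led by genes of excitatory neurons. Of these, cluster 12 had 120 and 102 against 39 and 67, cluster 22 had 58 and 47 against 30 and 26, and cluster 16 had 49 and 70 against 77 and 53. Inhibitory neuron-like cells were 11.2% and 7.47% for controls against 15.5% and 6.2% for cKO, and here the groups overlapped. The summed level of the 9 excitatory markers was 1304 and 1399 CPM (counts per 1000000 counts, scaled between libraries) for the controls against 1075 and 874 CPM for cKO, with 7 of the 9 lower in both. Astrocyte markers, 10 in number, summed to 2789 and 3019.5 CPM for controls against 3030.1 and 4610.5 CPM for cKO, 3 of them higher in both. Endothelial markers followed the batch, at 152 and 88.9 CPM in batch 1 and 647 and 366 CPM in batch 2. Haemoglobin and other red blood cell genes ranged from 71.3 CPM in control 1 to 4974 CPM in control 2. Markers of striatal projection neurons, the D1 cells of the neighbouring striatum among them, summed to 81.3 and 78.2 CPM for controls against 74.7 and 65.4 CPM for cKO. Of the markers, Dlx6os1 and Ube2c were not analysed here and Opalin was at 0 in every library. In a sum over all cells of a library, fewer cells of a type and less RNA per cell cannot be told apart.

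Within each group the value of batch 1 is given first. Foxp2 was at 34.2 and 39.7 CPM (controls) against 25.2 and 21.4 CPM (cKO). Both cKO libraries were below both controls (log2 fold change -0.67, SE 0.16). Among neuron-like cells alone its direction turned, to a log2 fold change of 0.65. That sum, the same wherever neuron-like cells alone are given, holds only the classes named excitatory, inhibitory and Cajal-Retzius. It leaves out every unnamed cluster, among them cluster 12, led by Ppp1r1b, Syt6 and other genes of layer 6. That cluster had 120 and 102 cells in control 1 and 2 against 39 and 67 in cKO 1 and 2. Also left out are clusters 16 and 22, and cluster 19, with Nxph3 and Syt6 among its leading genes. Cluster 19 had 84 and 8 control cells against 65 and 16 cKO cells. The sum includes cluster 18, most of which came from cKO libraries. The floxed exons of this allele encode part of the DNA-binding domain and lie before the 3' end that the chemistry reads, so this level does not check the deletion. Emx1, a homeobox factor of the dorsal telencephalon, was at 23.1 and 26.2 CPM (controls) against 11.7 and 11.5 CPM (cKO). Its 2 cKO values were nearly equal and lay below both controls (log2 fold change -1.09, SE 0.16), with differences of -0.96 in batch 1 and -1.16 in batch 2. The gene lies on chromosome 6 at 85187438 to 85204462, plus strand (GRCm38, GENCODE M21), and the cKO mice alone carry the Cre insertion in it. Its neighbours as a set did not share its direction. Of 17 tested genes within 1000000 bases on either side, 4 were higher in both cKO libraries than in both controls and 2 were lower, with a median log2 fold change of 0.0098. Within that window Sfxn5, a mitochondrial carrier, was at 92.5 and 133 CPM (controls) against 153 and 238 CPM (cKO). Sfxn5 was higher in both cKO libraries (log2 fold change 0.79, SE 0.28).

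Across all cells, edgeR's quasi-likelihood test called none of 14508 genes (0% at an adjusted p under 0.05), with 320 (2.21%) at an unadjusted p under 0.05. DESeq2 called 20 of 14226 (0.141%). With the batch as a block edgeR called 1 (0.00689%), mt-Co2. Without control 2 it called 6 genes and without cKO 1 it called 5. Levels are therefore described by where the libraries lay. Both cKO libraries were above both controls for 2000 genes (13.8%) and below both for 1843 (12.7%). A gene was at least 1.5-fold higher within both batches in 71 cases (0.489%) and at least 1.5-fold lower in 92 (0.634%). The median log2 fold change over all genes was -0.01. These shares are the background against which each family is set. For every gene named here from the sum over all cells, edgeR's adjusted p was 0.765 (Sp9 and Sp8) or lay between 0.998 and 1, so these differences did not pass the test.

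Transcription factors of the ventral, GABA-producing lineage were a group with many higher members. Of 29 tested members, 15 were higher in both cKO libraries than in both controls and 1, Nr2f2 of the caudal ganglionic eminence, was lower. The median log2 fold change was 0.34, which stayed between 0.32 and 0.53 over 10 other settings, and it was 0.43 in batch 1 and 0.35 in batch 2. At least a 1.5-fold excess within both batches was seen for 9 of them, 12 had an unadjusted p under 0.05, and DESeq2 called 9. The group is a cascade. Gsx2 acts in progenitors, the Dlx genes act in their dividing and newly born daughters, and Sp8 and Sp9 act in migrating and maturing neurons.

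The start regions of Dlx1, Dlx2 and Sp9, all higher in both cKO libraries and all on chromosome 2, are printed here beside that of Emx1, which went the other way. Each window runs from 250 bases before to 50 bases after the annotated start (RefSeq, GRCm38.p6), 5′ to 3′ on the strand of the gene. Capitals mark CACGTG, the E-box read by several helix-loop-helix factors. The windows are Dlx1 at chr2:71529195-71529494 on the plus strand, Dlx2 at chr2:71546705-71547004 on the minus strand, Sp9 at chr2:73271676-73271975 on the plus strand and Emx1 at chr6:85187681-85187980 on the plus strand.
Dlx1: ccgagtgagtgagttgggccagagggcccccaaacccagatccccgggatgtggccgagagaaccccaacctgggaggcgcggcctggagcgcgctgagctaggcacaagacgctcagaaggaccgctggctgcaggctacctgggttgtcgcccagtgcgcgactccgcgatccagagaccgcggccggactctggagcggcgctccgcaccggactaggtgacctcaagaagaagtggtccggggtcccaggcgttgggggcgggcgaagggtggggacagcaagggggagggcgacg
Dlx2: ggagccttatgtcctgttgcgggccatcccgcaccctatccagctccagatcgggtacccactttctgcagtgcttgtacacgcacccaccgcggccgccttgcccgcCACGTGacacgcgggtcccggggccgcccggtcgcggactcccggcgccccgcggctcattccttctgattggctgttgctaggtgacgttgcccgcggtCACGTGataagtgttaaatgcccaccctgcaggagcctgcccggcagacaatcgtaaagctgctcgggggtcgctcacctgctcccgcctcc
Sp9: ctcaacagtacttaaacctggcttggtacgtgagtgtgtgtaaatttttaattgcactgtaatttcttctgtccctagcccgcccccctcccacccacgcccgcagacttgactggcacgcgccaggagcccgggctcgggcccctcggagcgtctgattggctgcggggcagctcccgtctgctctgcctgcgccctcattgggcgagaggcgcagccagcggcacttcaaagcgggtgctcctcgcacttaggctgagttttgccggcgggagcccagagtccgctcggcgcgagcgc
Emx1: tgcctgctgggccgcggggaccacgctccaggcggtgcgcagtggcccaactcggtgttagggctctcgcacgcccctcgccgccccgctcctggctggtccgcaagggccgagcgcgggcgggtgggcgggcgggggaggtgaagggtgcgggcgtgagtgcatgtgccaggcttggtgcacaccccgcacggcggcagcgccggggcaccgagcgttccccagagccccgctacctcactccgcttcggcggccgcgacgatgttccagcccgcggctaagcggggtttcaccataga
All 4 windows were rich in CpG. They held 27 CpG pairs (Dlx1), 29 (Dlx2), 25 (Sp9) and 37 (Emx1) in 300 bases each, where the median over 32851 windows of the same length was 7. GC content was 69.3%, 66.3%, 63.7% and 74% in the same order, and the median window had 52.7%. The forkhead motif TGTTTAC, searched on both strands, was in none of the 4 and in 3.65% of all windows. TAATTA, a core read by homeodomains such as those of the Dlx proteins, was in none of the 4 and in 5.29% of all windows. CACGTG was in 7.15% of all windows, and only Dlx2 among these 4 held it, with 2 matches. Such matches describe the letters of these windows and nothing beyond them.

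Sp9, a zinc finger factor needed for the maturation of several interneuron and striatal types, was at 10.1 and 8.3 CPM (controls) against 29.2 and 37.9 CPM (cKO). The lower of the cKO libraries was well above the higher control, and the log2 fold change was 1.86 (SE 0.21, edgeR adjusted p 0.765), with differences of 1.48 in batch 1 and 2.13 in batch 2. Its paralog Sp8 was at 10.4 and 8.01 CPM (controls) against 29 and 35.6 CPM (cKO), again with no overlap (log2 fold change 1.81, SE 0.21). Dlx1 was at 31.6 and 23.2 CPM (controls) against 64.5 and 81.8 CPM (cKO). Dlx2, its partner on the opposite strand, was at 22.5 and 12.5 CPM (controls) against 57.3 and 61.4 CPM (cKO). Dlx5, which these factors switch on, was at 12.6 and 8.07 CPM (controls) against 29 and 25.6 CPM (cKO). All 3 Dlx genes were higher in both cKO libraries and in both batches, with log2 fold changes of 1.41 (SE 0.21), 1.76 (SE 0.29) and 1.40 (SE 0.25). Pbx3, a homeobox partner of Meis factors, was at 9.64 and 10.7 CPM (controls) against 28.3 and 21.2 CPM (cKO) (log2 fold change 1.29, SE 0.20). Tshz1, a zinc finger factor of the dorsal lateral ganglionic eminence, was at 37.1 and 42 CPM (controls) against 69.5 and 69.4 CPM (cKO) (log2 fold change 0.81, SE 0.14). Gsx2 and Nr2f2 were picked after their values were seen. Gsx2, a patterning factor of the ventral ventricular zone, was at 1.45 and 1.41 CPM (controls) against 4.41 and 6.57 CPM (cKO). Its cKO libraries were again above both controls. The abundant member Meis2 stood apart from this pattern, at 417 and 306 CPM (controls) against 379 and 375 CPM (cKO), with overlapping groups.

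**Figure D1:**
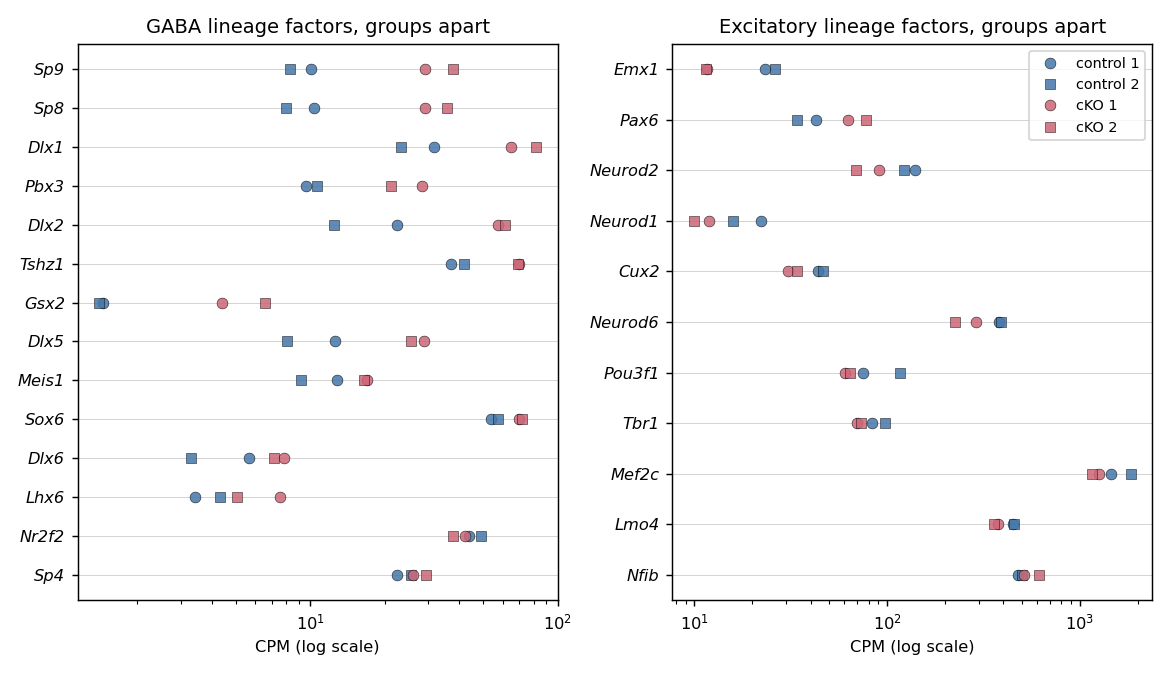
Scaled CPM on a log axis in the 4 libraries (circles batch 1, squares batch 2, blue control, red cKO) for ventral and dorsal lineage factors whose groups do not overlap. In the left panel the cKO libraries lie to the right for all but Nr2f2, and in the right panel they lie to the left for all but Pax6 and Nfib. Not every such factor is drawn, and Eomes, listed at 0 in control 2, is left out of the log axis.

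Cells with high levels of these genes formed a cluster that was small in the controls. Cluster 18, led by Igfbpl1, Pbx3, Sp9, Dlx2 and Sp8, had 23 and 4 cells in control 1 and 2, against 107 and 69 in cKO 1 and 2, and 86.7% of it came from cKO libraries. Cluster 25, which was left unnamed, had 3 and 0 cells for controls against 63 and 20 for cKO (96.5% cKO). These genes took part in the clustering, so the sizes are a description with no test. Without clusters 18 and 25, 14 of 29 ventral factors were still higher in both cKO libraries (13.25% of all genes) and 0 were lower (11.65%). Their median log2 fold change was 0.32. Sp9 was then at 8.89, 8.1, 19.5 and 25 CPM (controls first, batch 1 before batch 2) (log2 fold change 1.39), Dlx2 at 20.5, 12.4, 44.2 and 44.2 CPM (log2 fold change 1.43) and Igfbpl1 at 18.4, 11.1, 38.4 and 39.4 CPM (log2 fold change 1.40). Among neuron-like cells alone, a sum that includes cluster 18, 12 of 29 ventral factors were higher (12.2% of all genes) and 0 lower (13.4%), with a median of 0.52. In inhibitory neuron-like cells without cluster 18, 3 of 24 were higher (11.6%) and 2 lower (12.3%), with a median of 0.081. The machinery that makes and moves GABA had 4 of 7 genes higher, 0 lower and a median of 0.40. Gad2, a GABA-synthesizing enzyme, was at 52.2 and 38 CPM (controls) against 63.2 and 55.6 CPM (cKO) (log2 fold change 0.40, SE 0.19). Other higher members were Slc6a11, a GABA transporter that astrocytes also use, and Abat, which breaks GABA down. Slc6a11 was at 193 and 201 CPM (controls) against 246 and 281 CPM (cKO). In inhibitory neuron-like cells 0 members were above and 2 below both controls, and in astrocyte-like cells 5 were above and 0 below. The difference between classes was not tested.

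Factors of the dorsal, excitatory lineage were lower or overlapping for the most part. Of 31 tested members, 3 were higher and 10 lower in both cKO libraries, with a median log2 fold change of -0.012. Pax6, a progenitor factor that also marks some olfactory and astroglial cells, was at 42.5 and 34.1 CPM (controls) against 62.6 and 77.7 CPM (cKO), above both controls in both cKO libraries (log2 fold change 0.87, SE 0.18). Eomes, the intermediate progenitor factor, was near the floor throughout, at 0.104 and 0 CPM (controls) against 2.32 and 0.524 CPM (cKO). Neurod2, a helix-loop-helix factor of postmitotic excitatory neurons, was at 139.6 and 122 CPM (controls) against 91 and 68.7 CPM (cKO), and the groups did not overlap (log2 fold change -0.71, SE 0.19). Mef2c, an activity-regulated factor of maturing neurons, was at 1443 and 1830.01 CPM (controls) against 1248 and 1149 CPM (cKO) (log2 fold change -0.45, SE 0.22). In the number of cells with at least 1 count its direction turned (log2 fold change 0.21). Nfib was the other higher member, at 479 and 499 CPM (controls) against 509 and 609 CPM (cKO) (log2 fold change 0.19, SE 0.19). Among neuron-like cells alone, 13 of 30 members were lower (13.4% of all genes) and 3 higher (12.2%). These values stand beside the lower share of excitatory neuron-like cells given above, whose part in the result was not tested.

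Among layer 6 corticothalamic and upper layer genes, the members whose groups did not overlap were lower, and the rest overlapped. Of 14 layer 6 corticothalamic genes, 7 were lower in both cKO libraries and 0 were higher (median -0.27). Counting cells with at least 1 count of a gene in place of summed counts brought that median to -0.041. Ppp1r1b, which encodes the dopamine-regulated phosphatase inhibitor DARPP-32, was at 37.6 and 19.3 CPM (controls) against 13.8 and 9.31 CPM (cKO) (log2 fold change -1.30, SE 0.37). Ntsr1, the neurotensin receptor that marks corticothalamic cells, was at 17.4 and 13.8 CPM (controls) against 11.5 and 8.79 CPM (cKO) (log2 fold change -0.62, SE 0.22). Sla, a Src-like adaptor, was at 68.2 and 78.9 CPM (controls) against 53.2 and 50.4 CPM (cKO) (log2 fold change -0.51, SE 0.14). Sox5, a factor needed for deep-layer identity and the list's most abundant member with Rprm, was at 110.4 and 122 CPM (controls) against 112 and 111 CPM (cKO), with no separation. Layer 6b and subplate genes had 4 of 11 lower and 1 higher (median -0.30), and Cplx3, a complexin of subplate cells, was at 9.12 and 9.45 CPM (controls) against 3.19 and 6.25 CPM (cKO) (log2 fold change -0.98, SE 0.35). Among neuron-like cells alone the layer 6b median was 0.028. That sum leaves out cluster 12, led by Hs3st4, Cplx3 and other layer 6 genes, so it does not cover those cells. Of 12 upper layer genes, 4 were lower and 0 higher (median -0.22). Cux2 was at 43.6 and 46.6 CPM (controls) against 30.5 and 34.2 CPM (cKO) (log2 fold change -0.48, SE 0.14). Rorb, a layer 4 nuclear receptor, was at 124 and 166 CPM (controls) against 161 and 189 CPM (cKO) and did not follow them. Layer 5 pyramidal tract genes stood near the background, with 3 of 12 lower and 2 higher.

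**Figure D2:**
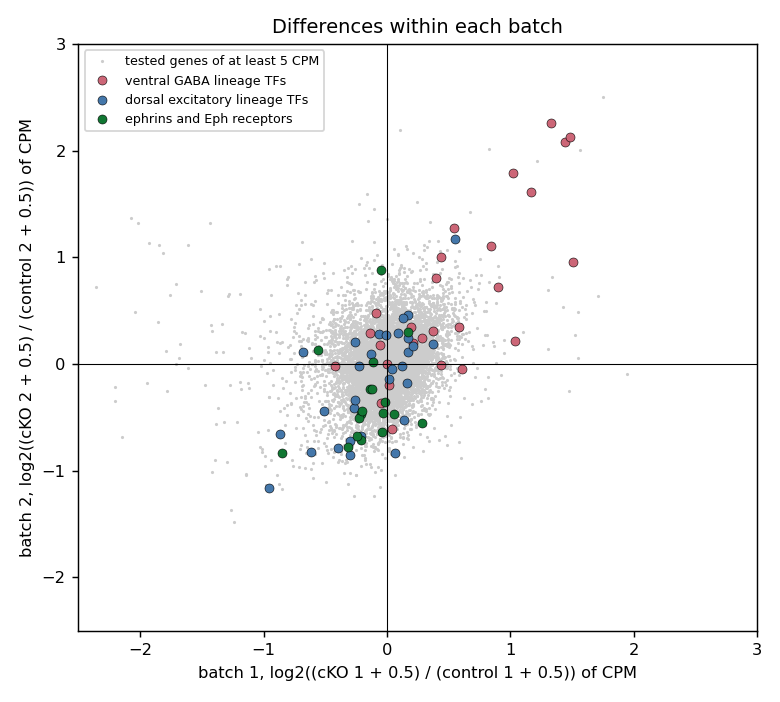
Each point is a gene of at least 5 CPM, with its log2 difference of cKO over control in batch 1 on the horizontal axis and in batch 2 on the vertical axis, both with 0.5 CPM added. Ventral lineage factors (red) reach beyond 1 on both axes, while no dorsal factor (blue) or ephrin or Eph receptor (green) does.

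Among secreted signals and their pathways, a few single genes stood further apart than the pathways they belong to. Igfbpl1, a secreted relative of the insulin-like growth factor binding proteins found in newborn neurons, was at 22.9 and 11.2 CPM (controls) against 78 and 65.8 CPM (cKO). Both cKO libraries were far above both controls (log2 fold change 2.08, SE 0.34). Of the 14 tested genes of the insulin-like growth factor pathway, 2 were higher, Igfbpl1 and the scarce adaptor Irs4, and 0 lower. Ntf3, the neurotrophin NT-3, was at 16.7 and 13.4 CPM (controls) against 6.67 and 4.88 CPM (cKO), lower in both cKO libraries (log2 fold change -1.38, SE 0.24), with differences of -1.26 in batch 1 and -1.37 in batch 2. Bdnf, another neurotrophin, was at 20.2 and 16.1 CPM (controls) against 13.3 and 14.7 CPM (cKO) (log2 fold change -0.38, SE 0.19). Their receptor genes did not follow them. Ntrk2, the Bdnf receptor, was at 302 and 298 CPM (controls) against 328 and 336 CPM (cKO), slightly higher in both cKO libraries. Ntrk3, the Ntf3 receptor, was at 109 and 117 CPM (controls) against 110.2 and 104 CPM (cKO), and its groups overlapped.

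Wnt pathway genes were mixed. Of 50 tested, 12 were higher and 5 lower in both cKO libraries, with a median of 0.028. Rspo2, a secreted amplifier of Wnt signals, was at 9.98 and 9.14 CPM (controls) against 4.7 and 4.96 CPM (cKO) (log2 fold change -0.98, SE 0.21). Sfrp1, a secreted Wnt antagonist, was at 23.9 and 18.5 CPM (controls) against 45.3 and 32.9 CPM (cKO) (log2 fold change 0.88, SE 0.22), and without clusters 18 and 25, the latter led by Sfrp1, its log2 fold change was 0.46. Fzd2, a receptor, was at 10.005 and 9.48 CPM (controls) against 17.1 and 16.4 CPM (cKO) (log2 fold change 0.78, SE 0.16). Nkd2, an intracellular inhibitor, was at 12.4 and 12 CPM (controls) against 7.76 and 8.1 CPM (cKO) (log2 fold change -0.62, SE 0.18). For none of these 4 did the groups overlap. Hedgehog pathway genes had 7 of 13 above and 2 below both controls (median 0.27). Gli3, a transcription factor that mostly represses in this pathway, was at 12.9 and 17.6 CPM (controls) against 23.3 and 30.4 CPM (cKO) (log2 fold change 0.82, SE 0.23). Smo, the transducer, was at 12.8 and 13.5 CPM (controls) against 16.4 and 21.2 CPM (cKO). Ptch1, receptor and target of the pathway, was at 54.6 and 62.8 CPM (controls) against 62.8 and 91.9 CPM (cKO), where the groups only just separated. Without clusters 18 and 25 the pathway had 5 higher and 0 lower (median 0.19), and among neuron-like cells alone 0 and 1 (median 0.27). Notch genes did not stand out, with 2 of 26 higher and 0 lower. BMP and TGF-beta genes were split, 8 higher and 9 lower of 47. Within them Inhba, an activin subunit, was at 31.3 and 36.1 CPM (controls) against 25 and 16.3 CPM (cKO) (log2 fold change -0.70, SE 0.24), and Bmp4 at 3.55 and 4.99 CPM (controls) against 11.2 and 6.13 CPM (cKO) (log2 fold change 1.02, SE 0.37). The FGF pathway had 6 of 29 members higher and 2 lower, and Fgfr2 was at 23 and 22.5 CPM (controls) against 28.6 and 29.96 CPM (cKO). The ErbB family had 3 of 11 higher, among them Egfr at 31.3 and 36.9 CPM (controls) against 43.1 and 58.7 CPM (cKO) and Erbb4, the neuregulin receptor of interneurons, at 31.6 and 26.8 CPM (controls) against 42.1 and 38.2 CPM (cKO).

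Sox factors and mitotic genes had many higher members over all cells. Of 17 Sox genes, 10 were higher in both cKO libraries and 0 lower, with a median of 0.34, and Sox6 among them also belongs to the ventral list. Sox1, a marker of neural precursors, was at 19.7 and 21.8 CPM (controls) against 33.6 and 43.5 CPM (cKO) (log2 fold change 0.89, SE 0.18). Sox21 was at 41.2 and 50.8 CPM (controls) against 63.5 and 89.2 CPM (cKO) (log2 fold change 0.73, SE 0.21), and Sox10, of the oligodendrocyte lineage, at 46.2 and 34.8 CPM (controls) against 59.6 and 59.5 CPM (cKO) (log2 fold change 0.55, SE 0.18). All 3 had cKO libraries above both controls. Sox11, the most abundant, was at 492 and 520.2 CPM (controls) against 490.3 and 668 CPM (cKO) and overlapped. Among neuron-like cells alone 3 of 14 Sox genes were above both controls (12.2% of all genes), with a median of 0.50. Markers of oligodendrocyte precursors summed to 971 and 732 CPM for controls against 1078 and 1062 CPM for cKO, with 5 of 8 higher in both cKO libraries, and their part in the result was not tested. Of 25 genes of the G2 and M phases of the cell cycle, 17 were higher and 0 lower (median 0.30), 7 of them at an unadjusted p under 0.05. Ccnb1, the mitotic cyclin B1, was at 25.9 and 24.1 CPM (controls) against 40.1 and 32.8 CPM (cKO) (log2 fold change 0.55, SE 0.16). Birc5, which encodes survivin of the chromosomal passenger complex, was at 41.4 and 39.1 CPM (controls) against 55.2 and 51.6 CPM (cKO) (log2 fold change 0.41, SE 0.13). Both were higher in both cKO libraries, and 0 of the list reached 1.5-fold within both batches. S phase genes followed in 2 of 20 cases only, with Mcm7 at 17.3 and 16 CPM (controls) against 19.2 and 18.9 CPM (cKO). Summed markers of dividing cells were at 284 and 307 CPM for controls against 355 and 398 CPM for cKO. Dividing cell-like cells were 6.49% and 8.06% of the control libraries and 6.72% and 9.28% of the cKO libraries, which overlapped. Inside that class 0 of 25 G2 and M genes were above both controls and 0 were below. Without clusters 18 and 25 the all-cell count was 19 of 25 (13.25% of all genes). Among neuron-like cells alone the groups overlapped for all 25, while the median was 0.46. Kinesins and dyneins had 10 of 47 higher, such as the mitotic motor Kif11 at 12.6 and 13.7 CPM (controls) against 16.2 and 20.6 CPM (cKO), and 3 lower, such as the neuronal dynein chain Dync1i1 at 75.6 and 81.2 CPM (controls) against 62.1 and 66.5 CPM (cKO). Histones and chromatin modifiers had 17 of 72 higher and 5 lower. The remodeller Chd7 was at 45.4 and 44.8 CPM (controls) against 54.3 and 64.4 CPM (cKO) (log2 fold change 0.40, SE 0.15) and Ezh2, the methyltransferase of Polycomb complex, at 49.8 and 47.6 CPM (controls) against 55 and 67.3 CPM (cKO). Cdca7 and Insm1 were among the genes of smallest p. Cdca7, a chromatin protein of proliferating cells, was at 7.49 and 7.93 CPM (controls) against 18.1 and 31 CPM (cKO), and Insm1, a zinc finger factor of newborn neurons and intermediate progenitors, at 3.37 and 4.6 CPM (controls) against 11 and 19.96 CPM (cKO). Fxyd1, a regulator of the sodium pump found in glia, was at 23.8 and 23.1 CPM (controls) against 40.8 and 41.4 CPM (cKO), with nearly equal values within each group (log2 fold change 0.81, SE 0.13).

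**Figure D3:**
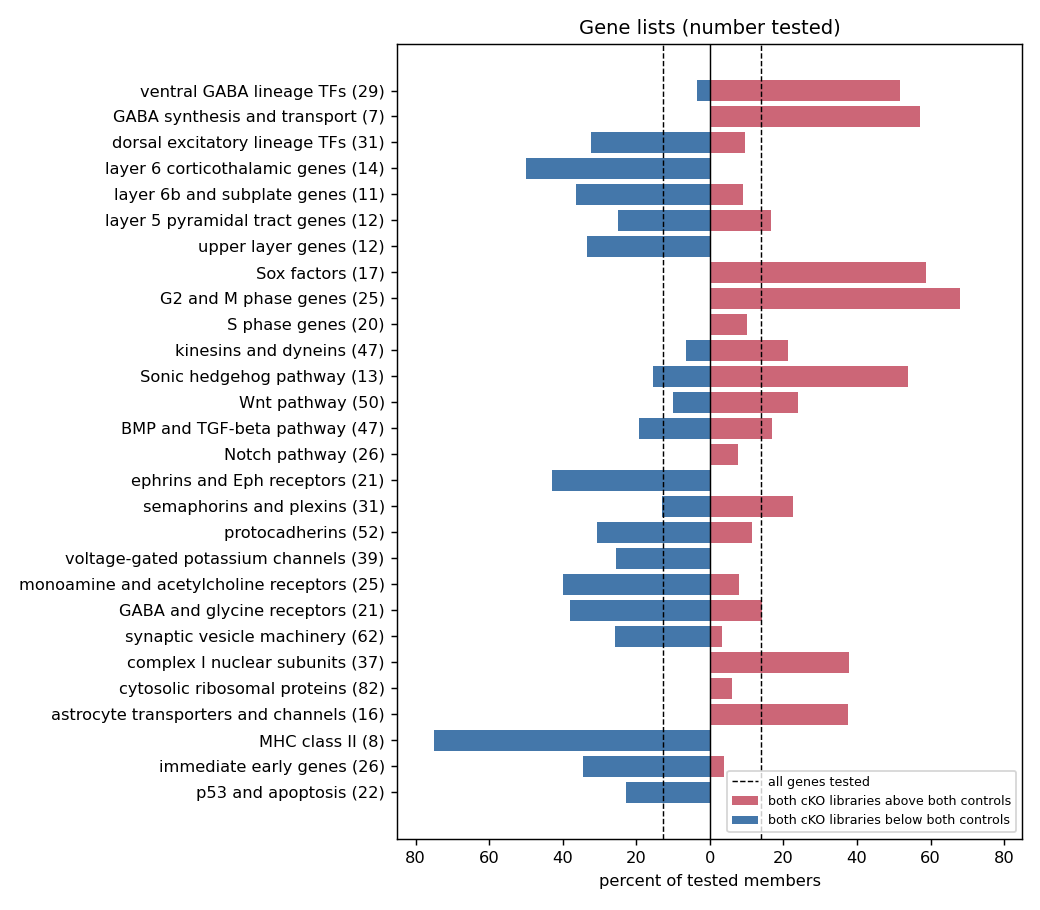
Bars give the percent of tested members of a gene list whose cKO libraries both lie above (red, right) or below (blue, left) both controls, and dashed lines mark 13.8% and 12.7%, the shares over all genes. On the right the bars of G2 and M phase genes (68%) and Sox factors (58.8%) are the longest, and on the left those of MHC class II genes (75%) and layer 6 corticothalamic genes (50%).

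Of the guidance and adhesion families, ephrins and Eph receptors, protocadherins and synaptic adhesion molecules had more lower than higher members, and the others were mixed. Of 21 ephrins and Eph receptors, which steer axons by repulsion, 9 were lower in both cKO libraries and 0 were higher, with a median of -0.26. Leaving out 1 library at a time moved that median between -0.43 and -0.12. Efna1, a ligand, was at 6.61 and 11.7 CPM (controls) against 3.45 and 6.33 CPM (cKO) (log2 fold change -0.91, SE 0.41). Epha7, a receptor, was at 84.7 and 79.96 CPM (controls) against 73.2 and 57.5 CPM (cKO), and Epha3 at 35.7 and 31.3 CPM (controls) against 30.05 and 19.4 CPM (cKO). These 3 had cKO libraries below both controls. Epha4, the more abundant receptor, was at 161 and 226 CPM (controls) against 158 and 164 CPM (cKO), and its groups overlapped. Protocadherins, most of them clustered genes that give each neuron its own surface code, had 16 of 52 lower and 6 higher (median -0.12). Pcdhb11 was at 4.38 and 3.95 CPM (controls) against 1.29 and 2.1 CPM (cKO) (log2 fold change -1.30, SE 0.36). Reads of such near-identical paralogs can be split between them in counting, so single members are uncertain. Semaphorins and plexins were split, 7 higher and 4 lower of 31, with Plxnb1 at 29.7 and 38.2 CPM (controls) against 41 and 53.4 CPM (cKO). Synaptic adhesion molecules had 13 of 48 lower and 4 higher, with medians of -0.018 in batch 1 and -0.21 in batch 2. Netrins, slits and their receptors had 2 of 18 higher and 3 lower. Cadherins and catenins had 2 higher and 5 lower of 22, with a median of 0.047. Nrxn3, a presynaptic neurexin, went against the rest at 147 and 148 CPM (controls) against 215 and 196 CPM (cKO) (log2 fold change 0.47, SE 0.15), and Cntn2, an axonal contactin, was at 33.3 and 28.2 CPM (controls) against 24.6 and 17.4 CPM (cKO) (log2 fold change -0.55, SE 0.21).

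Several families of receptors, channels and vesicle genes had more lower than higher members, by small amounts, while ionotropic glutamate receptors did not. Monoamine and acetylcholine receptors had 10 of 25 lower and 2 higher (median -0.29). Htr3a, the serotonin-gated channel of interneurons from the caudal eminence, was one of the higher ones, at 4.69 and 2.91 CPM (controls) against 7.79 and 8.63 CPM (cKO) (log2 fold change 1.11, SE 0.31). Htr7 was at 5.62 and 4.91 CPM (controls) against 3.8 and 3.71 CPM (cKO). GABA and glycine receptors had 8 of 21 lower and 3 higher, with medians of -0.016 in batch 1 and -0.19 in batch 2. In ionotropic glutamate receptors the counts were 5 higher and 2 lower of 24. Grin2b, the juvenile NMDA receptor subunit, was at 388 and 399 CPM (controls) against 317 and 256 CPM (cKO) (log2 fold change -0.46, SE 0.18), and in the number of cells with a count the log2 fold change was 0.027. Grin2c, a subunit best known from the cerebellum, was low everywhere but higher with cKO, at 0.156 and 0.113 CPM (controls) against 1.77 and 1.69 CPM (cKO). None of 39 voltage-gated potassium channel genes was higher in both cKO libraries and 10 were lower (median -0.11). That median was 0.071 in batch 1 and -0.23 in batch 2, so the lean was in batch 2, where the groups also differ in sex. Kcnip4, an auxiliary subunit, was at 32.8 and 33.4 CPM (controls) against 27.9 and 21.2 CPM (cKO) (log2 fold change -0.43, SE 0.18). Synaptic vesicle genes had 16 of 62 lower and 2 higher (median -0.11). Counting cells with at least 1 count brought that median to 0.0037. Neuropeptides were mixed, 4 higher and 7 lower of 30. Cort, the somatostatin-like peptide cortistatin, was at 2.44 and 3.44 CPM (controls) against 9.08 and 5.64 CPM (cKO) (log2 fold change 1.33, SE 0.35), and Cck at 346 and 335 CPM (controls) against 275 and 205 CPM (cKO) (log2 fold change -0.50, SE 0.20). For Cck the number of cells with a count gave 0.056. Among neuron-like cells alone 11 of 59 vesicle genes, 11 of 37 voltage-gated potassium channels and 6 of 20 ephrins and Eph receptors were lower, beside 13.4% of all genes in that sum.

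The other genes of smallest p among the lower ones encode proteins of several kinds. Of the genes that follow, Hspb3 and Rax were among the leading genes of cluster 5, as were Ntf3, Inhba and Neurod1. This excitatory neuron-like cluster had 258 and 256 cells in control 1 and 2 against 97 and 56 in cKO 1 and 2. Its part in these levels was not tested. Hspb3, a small heat shock protein, was at 20.4 and 20.6 CPM (controls) against 11.9 and 10.4 CPM (cKO) (log2 fold change -0.88, SE 0.16). Rax, a homeobox factor best known from retina and hypothalamus, was at 65.6 and 56.1 CPM (controls) against 39.8 and 28.6 CPM (cKO) (log2 fold change -0.83, SE 0.20). Itpr1, the calcium release channel of the endoplasmic reticulum, was at 56.8 and 60.8 CPM (controls) against 42.7 and 40.8 CPM (cKO) (log2 fold change -0.50, SE 0.13). For these 3 the groups did not overlap. Tshr, the thyrotropin receptor, was at 8.63 and 8.1 CPM (controls) against 4.64 and 4.64 CPM (cKO), and Klhl1, a neuronal kelch protein, at 13.4 and 13.8 CPM (controls) against 8.54 and 6.73 CPM (cKO), both lower in both cKO libraries.

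Genes of oxidative phosphorylation leaned higher, mostly in batch 2, where the groups also differ in sex. Nuclear genes of complex I had 14 of 37 higher and 0 lower, with medians of 0.02 in batch 1 and 0.33 in batch 2. Ndufa7 was at 449.9 and 506 CPM (controls) against 529 and 697 CPM (cKO). Complexes III and IV had 5 of 18 higher and 0 lower, with batch medians of 0.097 and 0.49. Cox6a1 and Cox8a were among the leading genes of the unnamed cluster 1, whose cells had a median mitochondrial share of 9.58%. It had 205 and 56 control cells against 321 and 473 cKO cells. The named classes leave it out, and there the complex I median lay between -0.066 (Cajal-Retzius cell-like) and 0.16 (dividing cell-like). The part of cluster 1 in these levels was not tested. Cytosolic ribosomal protein genes had 5 of 82 higher in both cKO libraries than in both controls and 0 lower. The log2 fold change was positive for 82 of them, with medians of 0.094 in batch 1 and 0.29 in batch 2. Without cKO 2 the median was -0.13, and without cKO 1 it was 0.49. The share of all counts in mitochondrially encoded genes was 3.62% and 4.20% in control 1 and 2, against 4.41% and 5.397% in cKO 1 and 2.

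Within the mitochondrial genome, 3 neighbouring genes went in different directions. mt-Co2, cytochrome oxidase subunit 2, was at 78.7 and 244 CPM (controls) against 8.31 and 35.2 CPM (cKO). Both cKO libraries were below both controls, and batch 2 was above batch 1 in each group (log2 fold change -2.90, SE 0.82). With the block its edgeR adjusted p was 0.0218, in a range of 0.0218 to 1 over 13 alternatives. mt-Co1, oxidase subunit 1, was at 806 and 974 CPM (controls) against 1989.7 and 1576 CPM (cKO), higher in both cKO libraries (log2 fold change 1.003, SE 0.24). mt-Atp6, an ATP synthase subunit, was at 933 and 446 CPM (controls) against 1653 and 1799 CPM (cKO) (log2 fold change 1.32, SE 0.37), with differences of 0.82 in batch 1 and 2.01 in batch 2. These 3 genes are neighbours on 1 strand of a circle that is transcribed as a long precursor. mt-Nd1 and mt-Cytb, the most abundant of the 12 tested, overlapped between groups, with mt-Nd1 at 14084 and 18082 CPM (controls) against 16657 and 24453 CPM (cKO) and mt-Cytb at 7259 and 9312 CPM (controls) against 8809 and 13021 CPM (cKO). mt-Atp8, which overlaps mt-Atp6 and lies between mt-Co2 and mt-Atp6, was left out by the filter. It had 0 and 2 counts in control 1 and 2, against 0 and 5383 in cKO 1 and 2, so a single library held nearly all of them. Overlapping genes of 1 strand cannot be told apart in 3' counts. mt-Co3, the next gene after mt-Atp6, was picked after its values were seen. Unscaled, in libraries of unequal totals, it had 15201 and 11539 counts in control 1 and 2, against 10169 and 3414 in cKO 1 and 2. How reads were assigned among these genes was not tested. The order of mt-Co2 held in each class of cells compared: both cKO libraries were below both controls in all 6, with log2 fold changes from -3.54 to -3.15. mt-Atp6 was above both controls in all 6. For mt-Co1 the groups overlapped in oligodendrocyte precursor-like cells and the cKO libraries were higher in the other 5. With the block mt-Co2 fell and mt-Atp6 rose in 5 of the 6 classes, Cajal-Retzius cell-like cells being the exception for both.

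**Figure D4:**
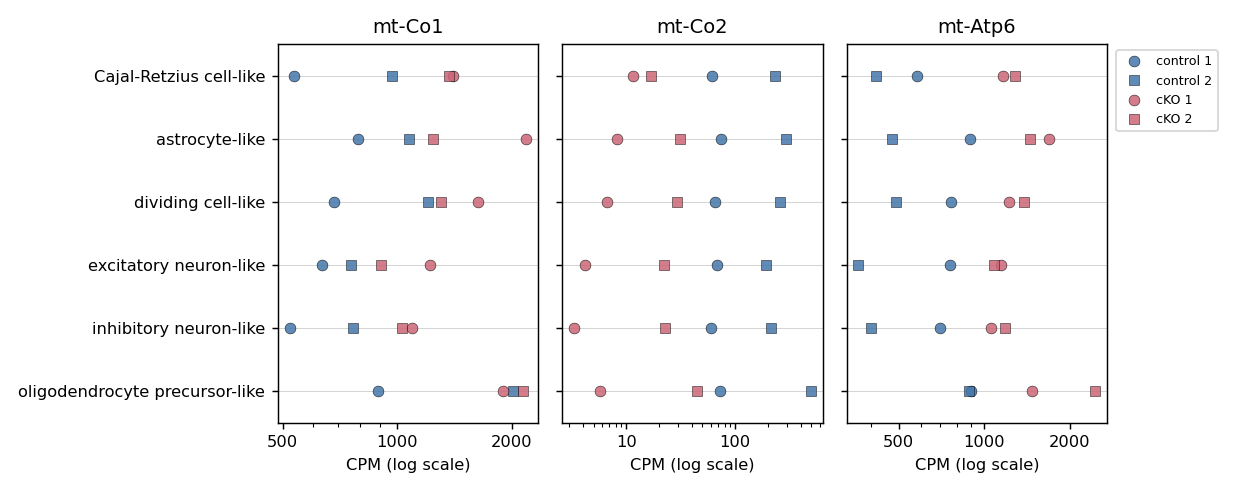
Scaled CPM on log axes of 3 mitochondrially encoded genes in each of the 6 classes of cells, with circles for batch 1, squares for batch 2, blue for controls and red for cKO. In each class the cKO points of mt-Co2 lie left of both controls and those of mt-Atp6 right of both, while mt-Co1 in oligodendrocyte precursor-like cells overlaps.

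Glial and immune families are set here beside their markers. Astrocyte transporters and channels had 6 of 16 higher and 0 lower (median 0.41), next to the astrocyte marker sum that was highest in cKO 2. Slc7a11, the cystine transporter, was at 79.1 and 70.5 CPM (controls) against 102 and 127 CPM (cKO) (log2 fold change 0.62, SE 0.17), and Gja1, the gap junction protein connexin 43, at 147 and 178 CPM (controls) against 179 and 298 CPM (cKO) (log2 fold change 0.55, SE 0.27). Both genes were among the leading genes of the unnamed cluster 3, which lies outside the astrocyte-like class. Cluster 3 had 41 and 229 control cells against 147 and 526 cKO cells, and its part in these levels was not tested. In the metallothioneins, which bind zinc and copper, Mt3 was at 1019 and 965 CPM (controls) against 1254 and 2028 CPM (cKO) (log2 fold change 0.73, SE 0.28) and Mt1 at 332 and 327 CPM (controls) against 399.96 and 602 CPM (cKO). Myelin genes had 4 of 13 higher, with medians of 0.80 in batch 1 and -0.14 in batch 2. Oligodendrocyte markers summed to 178 and 264 CPM for controls against 395 and 285 CPM for cKO, and their part in the result was not tested. Cnp, an early myelin enzyme, was at 58 and 65.1 CPM (controls) against 84.5 and 93.6 CPM (cKO) (log2 fold change 0.53, SE 0.15). MHC class II genes, which present antigen on microglia, macrophages and their relatives, had 6 of 8 lower and 0 higher (median -0.87, -1.63 in batch 1 and -0.23 in batch 2). H2-Ab1 was at 15.8 and 12.3 CPM (controls) against 3.03 and 9.6 CPM (cKO), lowest in cKO 1 (log2 fold change -1.16, SE 0.52). Leaving out 1 library moved the median of the family between -1.67 and -0.37, and among neuron-like cells alone it was 0.11. The microglia marker sum was 163 and 89.6 CPM for controls against 44.9 and 198 CPM for cKO, also lowest in cKO 1 and highest in cKO 2. Cd74, H2-Ab1, H2-Aa and H2-Eb1 led cluster 7, a Gfap-positive cluster of astrocyte-like cells (148 and 138 cells in control 1 and 2 against 95 and 130 in cKO 1 and 2), and were not among the leading genes of the microglia or macrophage-like cluster. The part of either cell type in the result was not tested. Immediate early genes, which respond within minutes to activity and to tissue handling, had 9 of 26 lower and 1 higher (median -0.64). Fos was at 509 and 54.5 CPM (controls) against 58.8 and 55.9 CPM (cKO), and Ier2 at 110.5 and 32.6 CPM (controls) against 18.1 and 24.2 CPM (cKO). In both, control 1 stood apart from the other 3 libraries. Without control 1 the median of the family was -0.10.

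Within classes of cells edgeR again called no gene without the block (0% of the genes tested in each), and unadjusted p was under 0.05 for 348 (3.07%) in dividing cell-like, 310 (2.75%) in inhibitory neuron-like, 266 (2.31%) in astrocyte-like, 129 (1.04%) in excitatory neuron-like, 47 (0.443%) in oligodendrocyte precursor-like and 58 (0.663%) in Cajal-Retzius cell-like cells. With the block, edgeR called 363 of 11339 (3.2%) in dividing cell-like cells, 103 of 11293 (0.912%) in inhibitory neuron-like cells, 71 of 11507 (0.617%) in astrocyte-like cells, 69 of 12404 (0.556%) in excitatory neuron-like cells, 2 of 10604 (0.0189%) in oligodendrocyte precursor-like cells and 0 of 8747 in Cajal-Retzius cell-like cells. DESeq2 called 10 (0.0882%), 15 of 9541 (0.157%), 1 (0.00869%), 2 (0.0161%), 0 and 1 (0.0114%) in the same order. Leaving out 1 library raised edgeR's count to as many as 203 in dividing cell-like and 246 in Cajal-Retzius cell-like cells (without control 2), 103 in excitatory neuron-like and 57 in inhibitory neuron-like cells (without cKO 1), 55 in astrocyte-like cells (without control 1) and 26 in oligodendrocyte precursor-like cells (without control 2). A call with the block is named as such. With the block, only 1 degree of freedom is left to measure the spread of a gene. Such calls, here and over all cells, therefore lean heavily on spread borrowed from other genes. Their small p-values are to be read with that limit.

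In dividing cell-like cells the cKO libraries were far above the controls in several ventral factors. These cells numbered 208 and 193 for controls against 189 and 286 for cKO. Of 27 ventral factors tested there, 15 were above both controls (15.2% of all genes were) and 1 below (14.2%), and with the block 12 rose and 0 fell. Dlx5 was at 1.9 and 5.75 CPM (controls) against 61.3 and 62 CPM (cKO), a log2 fold change of 4.01 (SE 0.43). Its edgeR adjusted p was 0.264 and with the block 9.03e-22, in a range of 9.03e-22 to 0.445 over 8 alternatives. Sp9 was at 5.7 and 16.4 CPM (controls) against 86.6 and 104 CPM (cKO) (log2 fold change 3.11, SE 0.43). In both Dlx5 and Sp9 the cKO libraries were close to each other and far above both controls, and both genes rose with the block. Dlx1 and Dlx2, picked after their values were seen, differed between the controls as well. Dlx1 was at 7.6 and 38.2 CPM (controls) against 139 and 206 CPM (cKO) and Dlx2 at 2.28 and 29.98 CPM (controls) against 186 and 211 CPM (cKO). Summed markers of inhibitory neurons in this class, in plain CPM, were 685 and 319.6 for controls against 779 and 822 for cKO, and several ventral factors are among those markers. Markers of oligodendrocyte precursors were 2979, 1962, 2543 and 1371 in the same order. A different makeup of the dividing cells and a different level within each type cannot be told apart here. Immediate early genes were lower in the same class, 12 of 19 below both controls, and with the block 8 fell. MHC class II genes were below both controls in 4 of 4 cases, 3 of which fell with the block.

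**Figure D5:**
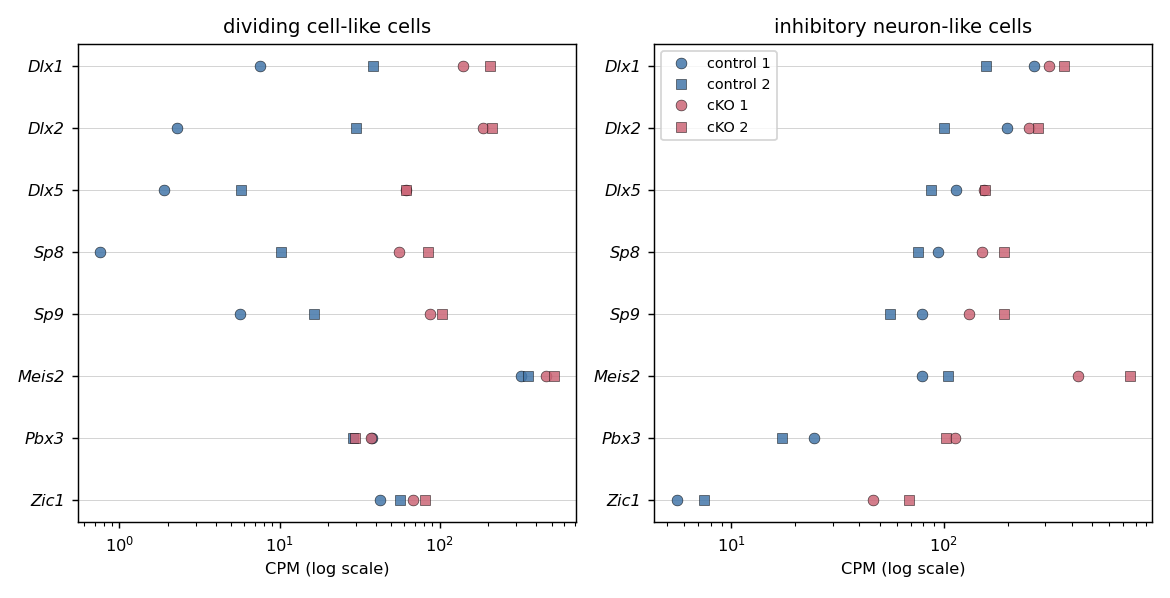
Scaled CPM on log axes of 8 ventral lineage factors in dividing cell-like cells (left) and inhibitory neuron-like cells (right), with circles for batch 1, squares for batch 2, blue for controls and red for cKO. Dlx1, Dlx2, Dlx5, Sp8 and Sp9 are farthest apart in the dividing cells, and Meis2, Pbx3 and Zic1 in the inhibitory neuron-like cells.

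In inhibitory neuron-like cells Zic1, Pbx3 and Meis2 were the genes of smallest p. Of 26 ventral factors tested, 14 were above both controls (15.4% of all genes) and 3 below (15%), and with the block 10 rose and 1, Nr2f2, fell. Zic1, a zinc finger factor of the septum and olfactory interneurons, was at 5.52 and 7.42 CPM (controls) against 46.2 and 68.3 CPM (cKO) (log2 fold change 3.15, SE 0.33). Pbx3 was at 24.6 and 17.3 CPM (controls) against 114 and 102 CPM (cKO) (log2 fold change 2.35, SE 0.24), and its partner Meis2 at 78.8 and 105 CPM (controls) against 429 and 752 CPM (cKO) (log2 fold change 2.69, SE 0.32). All 3 rose with the block. The largest clusters of the class differed between libraries: cluster 10 in control 1 and cKO 1, cluster 15 in control 2 and cluster 18 in cKO 2. Without cluster 18, 3 of 24 ventral factors were above both controls (11.6% of all genes in that fit) and 2 below (12.3%), with a median of 0.081. These counts were near the shares over all genes. Pbx3 and Zic1 were still above both controls, Pbx3 at 15.8, 16.5, 33.2 and 33.3 CPM and Zic1 at 1.32, 7.64, 8.6 and 26.8 CPM (controls first, batch 1 before batch 2). Meis2 was then at 20.3, 105, 50.05 and 138 CPM, and its groups overlapped. Neuropeptides were lower in the class, 10 of 26 below both controls and 4 above, and with the block 6 fell (Npy, Crh, Tac2, Tac1, Vip and Cck, named after their values were seen). Without cluster 18 that count was 4 below (12.3% of all genes) and 6 above (11.6%) of 25. Foxp2, left out of the clustering, was at 13.3 and 18.1 CPM (controls) against 64.8 and 48.8 CPM (cKO) in inhibitory neuron-like cells, above both controls, and at 10.1 and 22.9 CPM (controls) against 6.23 and 8.81 CPM (cKO) in excitatory neuron-like cells, below both. With the block it rose in the former class. Without cluster 18 it was at 2.9, 17, 5.22 and 4.06 CPM in the inhibitory neuron-like cells, in the same order of libraries, and the groups overlapped.

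Excitatory neuron-like cells kept the lower levels of several dorsal genes. Of 30 dorsal factors tested, 8 were below both controls (12.6% of all genes) and 1 above (11.6%). Emx1 was at 40.6 and 47 CPM (controls) against 25.6 and 25.1 CPM (cKO) (log2 fold change -0.79, SE 0.17), and Cux2 at 103 and 81.1 CPM (controls) against 53.4 and 51.9 CPM (cKO) (log2 fold change -0.80, SE 0.17). Ntf3, picked after its values were seen, was at 56 and 34.2 CPM (controls) against 25.9 and 16.6 CPM (cKO). With the block all 3 fell, with edgeR adjusted p of 0.0282, 0.00365 and 0.00301, and over 8 alternatives the ranges were 0.0282 to 1, 0.00365 to 1 and 0.00301 to 1. Astrocyte transporter genes rose with the block in this class, 8 of 16, although the list had only 1 member whose groups did not overlap. The summed astrocyte markers in it were 387 and 1168 CPM for controls against 618 and 2177 CPM for cKO, higher in batch 2, and their part in these values was not tested.

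In astrocyte-like cells immediate early genes were lower. Of 21 tested, 10 were below both controls (13.7% of all genes) and 1 above (13.2%), and with the block 11 fell. Cebpd, an early transcription factor of the stress response, was at 65.6 and 55.6 CPM (controls) against 21.2 and 28.4 CPM (cKO) (log2 fold change -1.31, SE 0.25). Fos, picked after its values were seen, was at 1855 and 289 CPM (controls) against 222 and 175 CPM (cKO), where control 1 alone was far above the rest. Cebpd and Fos fell with the block. MHC class II genes fell with the block in 4 of 7 cases. Igfbpl1 was low in these cells but higher with cKO, at 2.41 and 4.18 CPM (controls) against 17.6 and 12.4 CPM (cKO) (log2 fold change 2.27, SE 0.44), and it rose with the block. In oligodendrocyte precursor-like cells 9.42% of all genes were above both controls and 9.72% below, and the genes of smallest p beside mt-Co2 were Dlx2, at 3.2 and 6.23 CPM (controls) against 14 and 24.6 CPM (cKO), and Mtfr1, a mitochondrial fission regulator, at 10.4 and 21 CPM (controls) against 3.11 and 3.69 CPM (cKO). In Cajal-Retzius cell-like cells, with 12% above and 12.6% below, they were mt-Co2, mt-Atp6 and Rbm19, a ribosome assembly protein, which was at 53.8 and 29.6 CPM (controls) against 10.1 and 8.5 CPM (cKO). None of Dlx2, Mtfr1 and Rbm19 passed the test there with or without the block.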

How the data were processed

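Libraries were demultiplexed with bcl2fastq 2.17.1.14 and processed with Cell Ranger 2.1.1, UMI-tools 0.5.4, STAR 2.5.2b, Subread 1.6.2 (featureCounts) and SAMtools 1.6 against mm10 (GRCm38.p6), per the submitters' processing notes, which give no role or order. The authors deposited a count for each gene and cell. The values are whole numbers, with the uneven spacing given in the report, and were used as deposited. The mitochondrial share of each cell's counts is a fraction that the authors deposited, and it only described clusters. The sums over cells of each library were tested with edgeR 4.0.16 (R 4.3.3; TMM scaling, filterByExpr, quasi-likelihood test, Benjamini-Hochberg adjusted p under 0.05, no block). DESeq2 1.42.0 was an alternative. Only the edgeR fit over all cells without the block was run on simulated counts, and its outcome is not given here. The fits with the block, those of the classes and DESeq2 were not simulated. Levels are TMM-scaled CPM, except marker sums within classes (plain CPM), and differences within a batch are log2 ratios after adding 0.5 CPM.

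The labels give each replicate number a batch, so the replicate numbers pair the libraries. Deviations from the group means correlated at 0.535 over 14508 genes. Cells were clustered on 2000 variable genes (30 components, 20 neighbours, Leiden resolution 1, leidenalg 0.10.2), leaving out Foxp2, Emx1, mitochondrial, ribosomal, haemoglobin, immediate early and sex-linked genes. A cluster was named from at least 3 markers at 2-fold, 1 of them among its top 10 genes, and classes with at least 30 cells per library were fitted. No doublet caller was run, so doublets remain. Unnamed clusters held 37.9% of cells.

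Named genes were those called, the 12 higher and 12 lower of smallest p among separated genes of at least 5 CPM, up to 4 separated genes of smallest p and the 2 most abundant in each of 69 lists, the 3 of smallest p in each class, Emx1 and Foxp2, and not each was printed. The members, lists and markers were chosen with earlier results of these data known. Transgene transcripts and the other sort were not analysed here, and some genes that the naming rule covers are not reported here. Promoters came from RefSeq.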

Additional observations from a re-analysis of the deposited data

Results flagged for a closer look

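For the genes of this paragraph both cKO libraries were above both controls in at least 1 class of cells and below both in at least 1 other. The differences between classes in the log2 fold change are given, and they were not tested. Foxp2 differed by 3.04 between inhibitory neuron-like and excitatory neuron-like cells. Without cluster 18 the groups overlapped for Foxp2 in inhibitory neuron-like cells. Zic1, a zinc finger factor, differed by 1.16 between dividing cell-like and Cajal-Retzius cell-like cells, 1.5 between dividing cell-like and astrocyte-like cells, 3.71 between inhibitory neuron-like and Cajal-Retzius cell-like cells and 4.05 between inhibitory neuron-like and astrocyte-like cells. Sox11, a factor of immature neurons, differed by 1.61 between dividing cell-like and excitatory neuron-like cells and 1.54 between inhibitory neuron-like and excitatory neuron-like cells. Mcm7, a subunit of the replicative helicase, differed by 0.97 between dividing cell-like and astrocyte-like cells, 1.08 between dividing cell-like and excitatory neuron-like cells, 1.21 between inhibitory neuron-like and astrocyte-like cells and 1.33 between inhibitory neuron-like and excitatory neuron-like cells. Ezh2, a histone methyltransferase, differed by 0.831 between inhibitory neuron-like and oligodendrocyte precursor-like cells. Rbm19, a ribosome assembly protein, differed by 3.04 between dividing cell-like and Cajal-Retzius cell-like cells and 1.29 between dividing cell-like and excitatory neuron-like cells. Egfr differed by 0.751 between astrocyte-like and inhibitory neuron-like cells. Epha7, an Eph receptor, differed by 0.51 between Cajal-Retzius cell-like and excitatory neuron-like cells and 0.541 between Cajal-Retzius cell-like and inhibitory neuron-like cells. Scn3b, a sodium channel subunit, differed by 0.825 between astrocyte-like and Cajal-Retzius cell-like cells.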

How the results depend on the processing

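Over all cells edgeR called 0 genes with RLE size factors, with no filter, at a mean of at least 5 CPM, in the number of cells with a count, in neuron-like classes alone, and, both chosen after seeing the data, without cells of shared barcodes and without clusters 18 and 25. DESeq2 called 20, the replicate block 1, and leaving out 1 library gave 0 to 6. In the classes DESeq2 called 1 gene (Cajal-Retzius cell-like), 1 (astrocyte-like), 10 (dividing cell-like), 2 (excitatory neuron-like) and 15 (inhibitory neuron-like). The replicate block called 71 (astrocyte-like), 363 (dividing cell-like), 69 (excitatory neuron-like), 103 (inhibitory neuron-like) and 2 (oligodendrocyte precursor-like). Leaving out 1 library gave 0 to 246 in Cajal-Retzius cell-like, 1 to 55 in astrocyte-like, 0 to 203 in dividing cell-like, 0 to 103 in excitatory neuron-like, 0 to 57 in inhibitory neuron-like and 3 to 26 in oligodendrocyte precursor-like cells, where a lone library is assumed to vary like the other group. RLE size factors and Leiden resolution 0.5 called 0 in each class. Among named genes over all cells, 1218 of 1251 alternative values kept direction and side of the threshold, 20 passed it and 13 changed sign. In the classes 107 of 148 kept both, 40 passed and 1 changed sign. The block changed no call of a named gene over all cells but that of mt-Co2. The log2 fold change changed sign in the number of cells with a count for Cck (0.056), Epha4 (0.043), Grin2b (0.027), Mef2c (0.21), Ntrk3 (0.032) and Sox5 (0.058). It did so in neuron-like classes alone for Foxp2 (0.65) and H2-Ab1 (0.074), and without clusters 18 and 25 for Meis2 (-0.15). Leaving out 1 library gave -3.15 to 0.075 for Fos, -0.15 to 0.30 for Meis2, -0.13 to 0.0054 for Sox5 and -0.045 to 0.40 for Sox11. Foxp2 in inhibitory neuron-like cells was at -1.001 without cluster 18. The causes were not tested. Of 690 list medians under 10 settings, 521 moved by less than the spread between batches and 169 by more, and 23 of 69 lists kept 1 sign throughout. Genes near 1 CPM, such as Eomes and Grin2c, are limited by depth.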

Other observations

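The counts of further families stand beside 13.8% of all genes above both controls and 12.7% below. Of 22 genes of p53 and apoptosis, 0 were higher and 5 lower. Bbc3, a p53 target, was at 49.8 and 46.2 CPM (controls) against 41.9 and 31 CPM (cKO) (log2 fold change -0.40, SE 0.18). Fox factors other than Foxp2 had 5 of 23 higher and 0 lower. Foxm1, which drives mitotic genes, was at 5.83 and 6.46 CPM (controls) against 7.41 and 8.51 CPM (cKO). Splicing factors had 10 of 55 higher and 7 lower. Rbfox1, a splicing factor of maturing neurons, was at 73.1 and 77.5 CPM (controls) against 60.9 and 47.1 CPM (cKO) (log2 fold change -0.48, SE 0.17), and Qk, which is strong in glia and precursors, at 518 and 708 CPM (controls) against 721 and 1099.8 CPM (cKO) (log2 fold change 0.57, SE 0.29). Sodium channels had 4 of 10 lower and 1 higher, with medians of 0.006 in batch 1 and -0.38 in batch 2, and Scn3b at 95.1 and 93.1 CPM (controls) against 85.6 and 70.6 CPM (cKO). Cxcl12, a chemokine that guides migrating interneurons and Cajal-Retzius cells, was at 69.9 and 71.3 CPM (controls) against 56.1 and 58.1 CPM (cKO) (log2 fold change -0.31, SE 0.13). None of these passed the test.

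Some further families leaned within single classes. In dividing cell-like cells 11 of 23 genes of cholesterol synthesis and 13 of 38 genes of the extracellular matrix were below both controls (14.2% of all genes), while 16 of 55 splicing factors were above (15.2%). In inhibitory neuron-like cells 23 of 55 synaptic vesicle genes were below both controls (15%) and 25 of 72 chromatin genes above (15.4%). Without cluster 18 these counts were 10 of 55 (12.3% of all genes below) and 8 of 71 (11.6% above). In astrocyte-like cells 8 of 37 proteasome genes were below both controls (13.7%) and 8 of 24 voltage-gated potassium channels above (13.2%). The differences between classes were not tested.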
